A study of Homo sapiens with 3 samples.

Results

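The genes described here build or mark an epithelial sheet, or are regulators and products of the epithelial-mesenchymal transition (EMT). They were chosen by name: every numbered claudin and TJP gene of the deposited table, together with 27 genes given by symbol, 48 genes in all of the 17448 in the table. They were sorted into 8 groups by role, with 18 claudins, 4 other membrane proteins of tight junctions, 4 junction scaffolds, 5 polarity proteins, 2 non-muscle myosins, 5 genes of EPCAM and the keratins, 4 epithelial regulators and 6 mesenchymal and EMT genes. H128, an established human small cell lung cancer (SCLC) line, was transfected with a control siRNA (siCont) or with 1 of 2 siRNAs against ESRRG, the gene of the nuclear receptor ERRγ, and RNA was taken after 48 h. There were 3 libraries, siCont, siERRG2 and siERRG3, 1 per condition, and all 3 came from transfected cells of the same line. Without replicates no test of the conditions could be made and no p-value is given. A bulk library cannot tell fewer cells of a kind from less RNA per cell.

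Tight junctions seal the space between neighbouring epithelial cells. Claudins form their strands and set which ions pass, occludin and the related MARVEL proteins line the strands, and the TJP (zonula occludens) proteins and cingulin tie them to actin, on which the non-muscle myosins pull. The PAR proteins with atypical protein kinase C, and the Crumbs proteins, set where the apical border lies. In EMT the factors ZEB1, ZEB2, SNAI1, SNAI2 and TWIST1 repress epithelial genes, keratin filaments give way to vimentin, and GRHL2, OVOL1 and the splicing factors ESRP1 and ESRP2 hold cells in the epithelial state. SCLC cells of the neuroendocrine kind usually grow as loose clusters in suspension.

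The libraries held between 19861937 and 20016780 estimated counts. Values of 3 libraries are given throughout in the order siCont, siERRG2, siERRG3. Counts of ESRRG were 806, 211 and 230, so the target was lower in both libraries labelled as knockdowns. Most markers of neuroendocrine SCLC were abundant. The 9 that the table lists summed to between 1238 and 1529 in the deposited expression value, which behaves as FPKM, a read number divided by transcript length and depth, although its unit is not named. UCHL1 was the largest part of each sum, at 729, 696 and 1006, while SCG2 stood at 4.56 and DLL3 at 8.42 in siCont. The 9 did not move together. Counts of INSM1 were 10359, 5279 and 9168, those of NEUROD1 7395, 7020 and 4073, and those of SCG2 234, 558 and 257. The 7 markers of non-neuroendocrine SCLC summed to between 1.40 and 2.44, with YAP1 between 0.01 and 0.03 and REST between 0.02 and 0.07. CD44 was the largest part of each of these sums, at 0.96, 0.68 and 1.86, and ANXA1 stood at 0, 0.54 and 0.03. The 3 leukocyte markers summed to between 2.59 and 2.91. Of the fibroblast and endothelial markers, COL1A2 stood at 18.8 and CDH5 at 17.62 in siCont, while PDGFRB stood at 0.04 and VWF at 0. The 3 endothelial markers summed to between 7.24 and 19.8, lowest in siERRG3. Nearly all of each sum was CDH5, at 17.62, 19.62 and 7.06. PECAM1 stood at 0.25, 0.16 and 0.18, and VWF at 0, 0.01 and 0.

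Most genes of the junction proper were close to silent in siCont. Of the 48 members, 19 reached an FPKM of 1 and 7 reached an FPKM of 10. The 7 were the myosins MYH9 (47.39) and MYH10 (33.28), the mesenchymal filament gene VIM (29.35), the polarity genes PRKCI (20.67) and PARD6A (12.56), and the EMT factors SNAI2 (17.08) and ZEB1 (14.96). In the same library 89.5% of all genes lay below MYH9 and 83.5% below VIM. EPCAM, the surface protein by which carcinoma cells are commonly recognised, stood at 0.53, with 31.3% of all genes below it.

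Under 10 counts in every library were found for 15 members. They were 10 claudins (CLDN2, CLDN5, CLDN6, CLDN7, CLDN10, CLDN14, CLDN16, CLDN18, CLDN20 and CLDN23), the scaffolds TJP1 and TJP3, and the epithelial regulators ESRP1, GRHL2 and OVOL1. In 8 of them no library had more than 3 counts. TJP1, the founding zonula occludens protein, had 3 counts in siCont and 2 in each ESRRG library. CLDN6, CLDN23 and OVOL1 had 0 counts in siCont and in siERRG2, and CLDN14 had 0 in siCont. Among the members with fewer than 10 counts in every library, a change with either siRNA was not detectable at this depth.

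**Figure D1:**
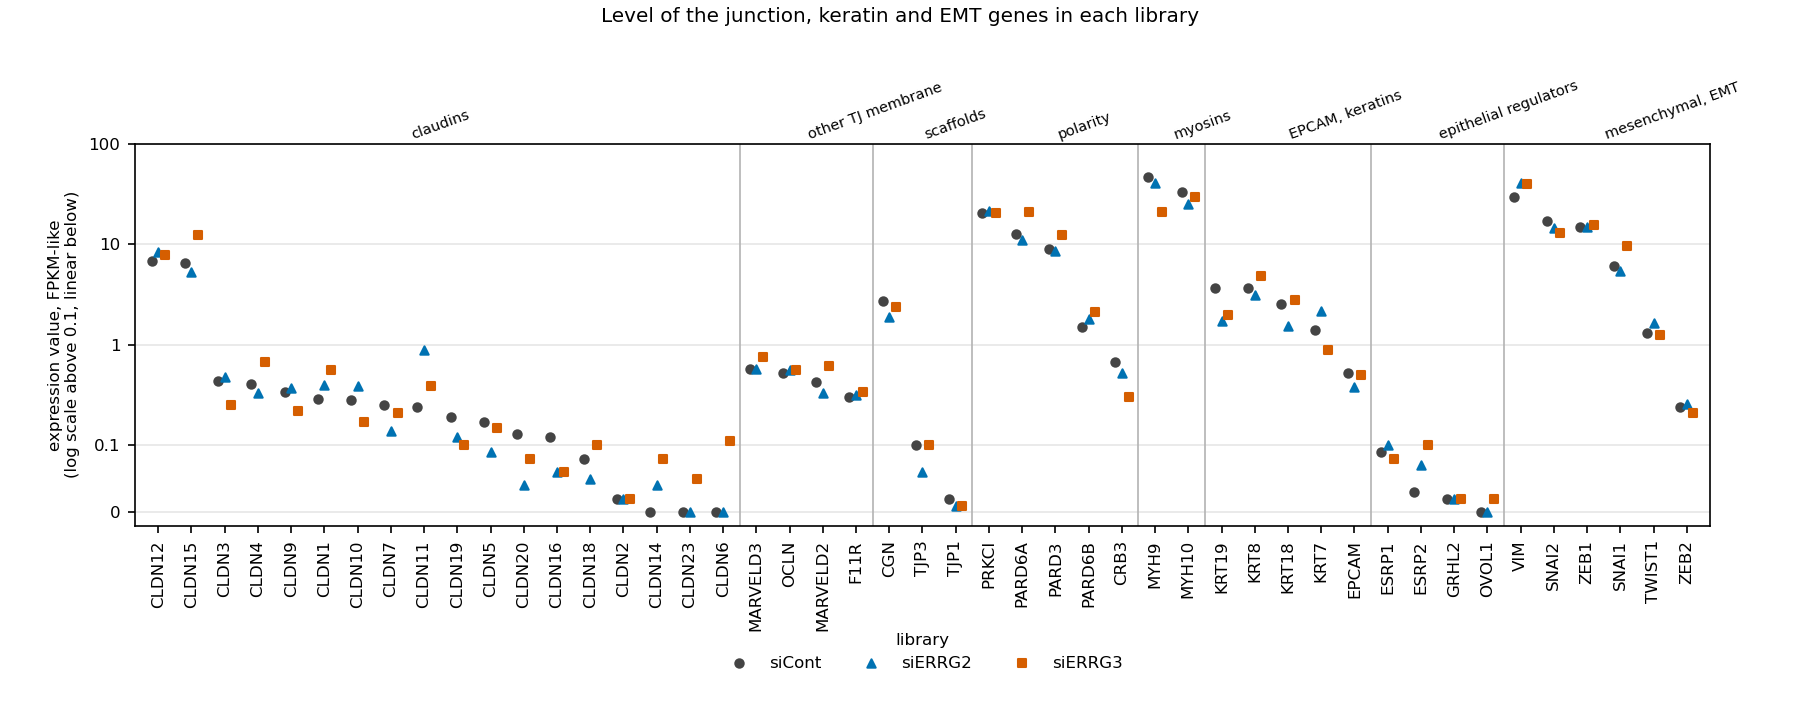
Deposited FPKM-like value of the genes, 1 of the 48 left out, in each of the 3 libraries, ordered by role and by their level in siCont; the vertical axis is logarithmic above 0.1 and linear below, and each point is 1 library. CLDN12 and CLDN15 stand alone among the claudins above 1, and the myosins, VIM, SNAI2 and ZEB1 lie above 10.

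ZEB and Snail proteins bind the E-box CACCTG, and the promoters of the members were searched for it. RefSeq promoter windows of GRCh38.p14, from 250 bases before to 50 after the start, were found for 28 of the 48 members in 47 windows, since a gene can have several starts. The letters CACCTG on either strand (CAGGTG on the other) were present in 34.0% of the 47 windows, against 20.6% of all 35116 windows. A match is a string of letters and not a proven site. Windows with 5 or more matches made up 0.0940% of all windows and included 1 window each of CRB3 and CLDN7, which are shown for that reason and were chosen after the matches were seen. CRB3, the Crumbs protein of epithelia, had counts of 11, 10 and 6, and CLDN7 of 8, 4 and 7. In the stretches of 30 bases below, written in the direction of the gene, capitals mark the E-box, and the last CLDN7 stretch overlaps the one before it.
CRB3, from -230 to -201, chr19:6464041-6464070, plus strand: tgCAGGTGtaaggtccccctcaCACCTGcg
CRB3, from -159 to -130, chr19:6464112-6464141, plus strand: ggggtcccgttaCAGGTGcgcccacagcgc
CRB3, from -101 to -72, chr19:6464170-6464199, plus strand: ctcagcgaggctCAGGTGcacaagccggaa
CRB3, from -72 to -43, chr19:6464199-6464228, plus strand: agtgcgctctccCAGGTGagtgactaaact
CLDN7, from -186 to -157, chr17:7262635-7262664, minus strand: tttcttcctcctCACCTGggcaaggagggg
CLDN7, from -147 to -118, chr17:7262596-7262625, minus strand: cgacttccggttCAGGTGagtgtcccttcg
CLDN7, from -26 to 4, chr17:7262475-7262504, minus strand: tatactCAGGTGcgcccCACCTGtccgccc
CLDN7, from -7 to 23, chr17:7262456-7262485, minus strand: cctgtccgcccgCACCTGctggctcacctc

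Of the 28 members with a window, 13 held CACCTG in at least 1 window, and 10 of these 13 were under an FPKM of 1 in siCont. The other 15 held none, and 8 of these 15 were also under 1. Members without a match thus included the expressed VIM, MYH9, PRKCI, CLDN12 and CLDN15 and the low CLDN1, CLDN2, CLDN4 and ZEB2, and members with one included the expressed ZEB1, PARD6A and MYH10. The share of all genes with a match in at least 1 window was not computed. A gene with more windows has more chances of a match. ERR receptors bind the half-site AAGGTCA. Searched on either strand, these letters were present in 3.92% of all windows and in 1 of the 47 windows of the members, that of an inner start of TJP1. It is shown with the half-site, here read from the opposite strand, in capitals.
TJP1, from -141 to -112, chr15:29820786-29820815, minus strand: cttgcacctttTGACCTTacattgaggaag

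The 33 members that reached 10 counts in any library were compared between libraries, on counts scaled with TMM factors. A member is called lower or higher here when its log2 CPM, the library-scaled count on a log2 scale, differed by at least 1.2-fold. In siERRG2, 9 of the 33 members were lower than in siCont (27.3%, against 19.2% of the 14031 genes tested) and 7 were higher (21.2%, against 16.4%), 16 in either direction (48.5%, against 35.5%). In siERRG3, 8 were lower (24.2%, against 25.1%) and 13 were higher (39.4%, against 23.2%), 21 in either direction (63.6%, against 48.3%). The median log2 fold change of the 33 was -0.06 in siERRG2 and 0.10 in siERRG3, and that of all genes was -0.00038 and -0.0033. Of the 33 members, 15 had a mean of under 50 counts. A 95% exact binomial (Clopper-Pearson) interval was set on each ratio of scaled counts. It covers counting error only and compares libraries, not conditions. With the interval also on 1 side of 1, in siERRG2 5 members were lower (15.2%, against 12.8% of genes) and 4 higher (12.1%, against 10.2%), 9 in all (27.3%, against 23.0%). In siERRG3 3 were lower (9.09%, against 19.9%) and 9 higher (27.3%, against 17.1%), 12 in all (36.4%, against 36.9%). The siCont library is shared by both comparisons.

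**Figure D2:**
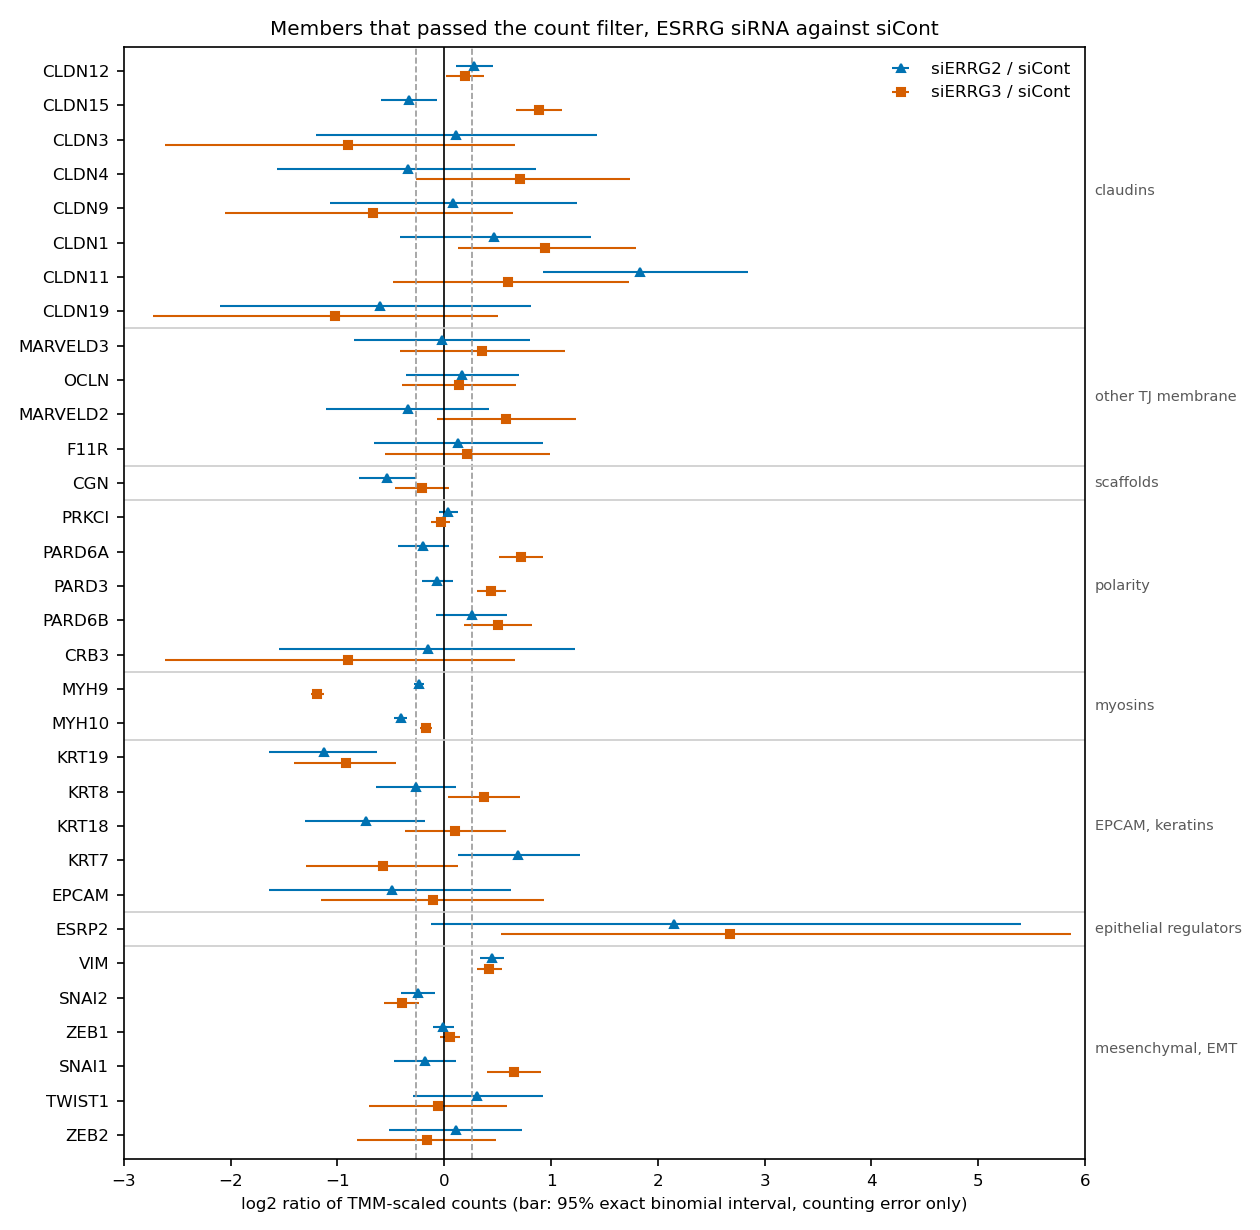
Log2 ratio of TMM-scaled counts to siCont for the members that passed the filter, 1 of the 33 left out (blue triangles, siERRG2; orange squares, siERRG3), with 95% exact binomial intervals that cover counting error only; dashed lines mark 1.2-fold. The intervals of VIM lie above 0 and those of KRT19 below 0 in both libraries, while MYH9 lies at -1.19 in siERRG3.

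Of the non-muscle myosins, MYH9 was lower in siERRG3 and MYH10 in siERRG2, while MYH9 in siERRG2 and MYH10 in siERRG3 fell short of 1.2-fold. MYH9, the heavy chain of non-muscle myosin IIA (gene 4627, chromosome 22 from 36281277 to 36388067 in the GRCh38 coordinates of the table), had counts of 7072, 6082 and 3156. The siERRG3 library stood far below the others, with a log2 fold change of -1.19 and a ratio of 0.439 (interval 0.421 to 0.458), against -0.23 and 0.850 (0.821 to 0.880) in siERRG2. MYH10, the heavy chain of myosin IIB (gene 4628, chromosome 17), had 5141, 3924 and 4649 counts and was lowest in siERRG2. Its log2 fold change was -0.41 in siERRG2 (ratio 0.755, 0.724 to 0.787) and -0.17 in siERRG3 (0.889, 0.855 to 0.925). On the FPKM-like scale the level of MYH9 was 1.42 times that of MYH10 in siCont, 1.60 times in siERRG2 and 0.706 times in siERRG3, so the order of the myosins turned in siERRG3. Their summed level was 80.7, 65.8 and 50.9. APOL1, which overlaps MYH9 in the table, had 52, 23 and 43 counts.

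Keratins were low, and of the 4 keratins among the members only KRT19 was below siCont by 1.2-fold with its interval under 1 in both ESRRG libraries. Of all genes, 12.8% were so in siERRG2 and 19.9% in siERRG3, and the share in both was not computed. KRT19, a keratin of simple epithelia without a fixed partner (gene 3880, chromosome 17 from 41523617 to 41528389), had counts of 108, 50 and 58, and was lower in both ESRRG libraries. Its log2 fold changes were -1.10 (ratio 0.458, 0.321 to 0.646) and -0.90 (0.528, 0.377 to 0.733). KRT15, which overlaps it in the table, had 105, 79 and 125 counts and was highest in siERRG3.

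KRT8 and KRT18, which pair in 1 filament and are neighbours on chromosome 12, were lowest in siERRG2 and highest in siERRG3. KRT8 had 133, 112 and 175 counts, giving a ratio to siCont of 0.833 (0.642 to 1.08) for siERRG2 and of 1.29 (1.03 to 1.63) for siERRG3. KRT18 had 74, 45 and 81 counts, with ratios of 0.601 (0.406 to 0.883) and 1.08 (0.776 to 1.496). Both genes have many processed pseudogenes and their extents overlap in the table, and whether reads were divided among copies was not tested. KRT7, a keratin of ducts and glands, showed the reverse order, with 44, 72 and 30 counts and ratios of 1.62 (1.10 to 2.41) and 0.671 (0.407 to 1.09). EPCAM had 18, 13 and 17 counts, and both intervals included 1.

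Of the 6 mesenchymal and EMT genes, 1 was higher by at least 1.2-fold with the interval above 1 in siERRG2 (16.7%, against 10.2% of all genes). In siERRG3 2 were higher (33.3%, against 17.1%) and 1 lower (16.7%, against 19.9%). VIM (gene 7431, chromosome 10) had counts of 1091, 1506 and 1488, and the ESRRG libraries lay close together above siCont. Its log2 fold changes were 0.45 (ratio 1.37, 1.26 to 1.48) and 0.42 (1.34, 1.24 to 1.45). The level of VIM was 2.58 times the summed level of KRT7, KRT8, KRT18 and KRT19 in siCont, 4.72 times in siERRG2 and 3.78 times in siERRG3. Fibroblasts also express VIM, and the summed FPKM-like level of the 5 fibroblast markers was 22.8, 32.3 and 25.7. The 5 did not move together: COL1A2, which made up most of the sum, had counts of 2043, 2896 and 2505, COL1A1 had 181, 127 and 132, and LUM had 83, 183 and 58. DCN had 8 counts in each library and PDGFRB 5, 4 and 4. Their part in the values of VIM was not tested.

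Of the repressors, ZEB1 was the most even, with counts of 1809, 1822 and 1911 and ratios of 0.996 (0.933 to 1.06) and 1.04 (0.974 to 1.11). SNAI2 (Slug) had 717, 611 and 553 counts and was below siCont in both ESRRG libraries, by a log2 fold change of -0.25 in siERRG2, short of 1.2-fold, and -0.40 in siERRG3 (ratio 0.758, 0.678 to 0.849). SNAI1 (Snail) had counts of 207, 185 and 331, highest in siERRG3, where the log2 fold change was 0.65 against -0.18 in siERRG2 (ratio in siERRG3 1.57, 1.32 to 1.88). The level of SNAI2 was 2.79 times that of SNAI1 in siCont, 2.66 times in siERRG2 and 1.35 times in siERRG3. TWIST1, with 43, 54 and 42 counts, and ZEB2, with 44, 48 and 40, had intervals that included 1 in both libraries.

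**Figure D3:**
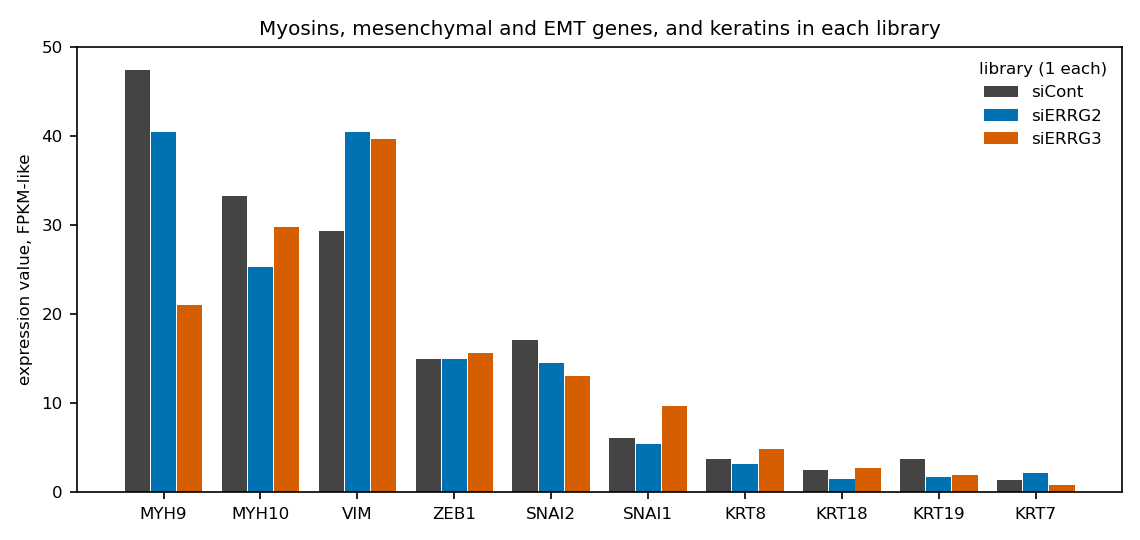
Deposited FPKM-like value of the myosins, mesenchymal and EMT genes and keratins in each library; each bar is 1 library, with no error bar because there are no replicates. MYH9 stands at 47.39 in siCont and 21.08 in siERRG3, VIM is higher in both ESRRG libraries, and the keratins stay below 5.

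The claudin level of the H128 libraries was mostly that of CLDN12 and CLDN15. Together these made up 81.9%, 80.0% and 86.3% of the summed claudin level. The sum itself was 16.3, 17.0 and 23.6. CLDN15, which forms cation pores (gene 24146, chromosome 7), had counts of 275, 221 and 516, lowest in siERRG2 and highest in siERRG3. Its log2 fold changes were -0.33 (ratio 0.795, 0.663 to 0.952) and 0.88 (1.85, 1.59 to 2.14). Its extent overlaps AP1S1, FIS1 and PLOD3, whose differences from siCont in siERRG3 were -0.35, 0.09 and -0.28 on the log2 scale. AP1S1 and PLOD3 were thus lower there by at least 1.2-fold. Whether the counting divided reads among these genes and CLDN15 was not tested. CLDN12 (gene 9069, chromosome 7) had 493, 606 and 575 counts and was higher in siERRG2, with a log2 fold change of 0.28 (ratio 1.22, 1.08 to 1.37). In siERRG3 it was 0.20, short of 1.2-fold (1.15, 1.015 to 1.30).

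The other 16 claudins had under 50 counts in every library, and 6 of them passed the filter. CLDN11, a claudin of myelin and of Sertoli cells, had 13, 47 and 20 counts, with a log2 fold change of 1.69 in siERRG2 (ratio 3.57, 1.90 to 7.20) and 0.53 in siERRG3 (1.51, 0.716 to 3.31). SLC7A14, which overlaps it in the table, was also highest in siERRG2, with 154, 231 and 160 counts, and the counts of both genes were not whole. CLDN1, a barrier claudin of the skin, had 20, 28 and 39 counts, with ratios of 1.38 (0.752 to 2.59) and 1.92 (1.09 to 3.47). CLDN4 had 15, 12 and 25 counts, and METTL27, which overlaps it, had almost the same, 15, 13 and 24, and whether reads of the pair were shared was not tested. CLDN3, CLDN9 and CLDN19 had between 6 and 15 counts in each library, and their intervals included 1 in both comparisons. CLDN3 and CLDN4 lie 60.6 kb apart on chromosome 7, and CLDN6 and CLDN9 0.207 kb apart on chromosome 16.

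Of the 4 other membrane proteins of tight junctions, 0 passed 1.2-fold against siCont with the interval on 1 side of 1 in either ESRRG library. Of the 2 scaffolds that passed the filter, 1 did so in siERRG2, which was CGN, and 0 in siERRG3. The shares of all genes were 23.0% in siERRG2 and 36.9% in siERRG3, and these groups are too small to set against them. OCLN (occludin) had counts of 58, 66 and 65, F11R (the adhesion molecule JAM-A) had 28, 31 and 33, and MARVELD3 had 27, 27 and 35. The interval of each included 1 in both libraries. MARVELD2 (tricellulin, the protein of 3-cell corners) had 35, 28 and 53 counts, with ratios of 0.791 (0.464 to 1.34) and 1.49 (0.954 to 2.35). It overlaps RAD17 in the table, which had 670, 634 and 263 counts and was lowest where MARVELD2 was highest. CGN (cingulin, gene 57530, chromosome 1) had 280, 196 and 247 counts, with a ratio of 0.692 (0.574 to 0.834) for siERRG2 and of 0.867 (0.728 to 1.03) for siERRG3.

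Of the 5 polarity genes, 0 passed 1.2-fold in siERRG2, against 35.5% of all genes. In siERRG3 4 of the 5 passed it, against 48.3% of all genes. Of these, 3 were higher with the interval above 1, against 17.1% of all genes. CRB3 was lower, with an interval that included 1. PARD6A, an adaptor of the PAR complex (gene 50855, chromosome 16 from 67660948 to 67662778), had counts of 312, 276 and 521, and differed from siCont by -0.19 on the log2 scale for siERRG2 and by 0.71 for siERRG3 (ratio in siERRG3 1.64, 1.42 to 1.90). The table places 4 other genes over it. Of these ACD, with 871, 857 and 1496 counts, ENKD1, with 379, 417 and 611, and CARMIL2, with 1341, 1333 and 1694, were also higher in siERRG3, while GFOD2 was not, with 671, 684 and 705. Whether the counting divided reads among these genes was not tested. PARD3, the scaffold of the complex, had 781, 756 and 1079 counts, with a ratio in siERRG3 of 1.36 (1.24 to 1.49). PARD6B had 139, 168 and 200 counts, and its ratio in siERRG3 was 1.42 (1.13 to 1.77). PRKCI, its kinase, had 2009, 2086 and 2000 counts, and its ratios were 1.03 (0.965 to 1.09) and 0.979 (0.9197 to 1.04). CRB3 had intervals that included 1 in both.

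Only 1 of the 4 epithelial regulators passed the filter. ESRP2, a splicing factor of epithelial cells, had counts of 2, 9 and 13, with ratios of 4.45 (0.921 to 42.3) and 6.39 (1.45 to 58.3). Its counts were not whole and its extent overlaps NFATC3, DUS2 and PLA2G15, so the values are uncertain. Its log2 fold changes were 1.45 and 1.89 on counts and only 0.39 and 0.62 on the FPKM-like values. ESRP1 had 7, 7 and 6 counts, GRHL2 had 1, 2 and 1, and OVOL1 had 0, 0 and 1.

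Set against each other, which takes siCont out of the comparison, the ESRRG siRNA libraries differed in members of most roles. In siERRG3, 8 of the 33 members were lower than in siERRG2 (24.2%, against 25.3% of all genes) and 13 were higher (39.4%, against 26.4%), 21 in either direction (63.6%, against 51.7%). With the interval on 1 side of 1, 3 were lower (9.09%, against 20.4%) and 9 higher (27.3%, against 19.6%), 12 in all (36.4%, against 39.9%). The 3 were MYH9 (ratio of siERRG3 to siERRG2 0.516, 0.494 to 0.539), KRT7 (0.415, 0.261 to 0.643) and CLDN11 (0.423, 0.238 to 0.728). The 9 were CLDN15 (2.32, 1.98 to 2.73), CLDN4 (2.07, 1.003 to 4.53), MARVELD2 (1.88, 1.17 to 3.09), PARD6A (1.88, 1.62 to 2.18), KRT18 (1.79, 1.23 to 2.64), SNAI1 (1.78, 1.48 to 2.14), KRT8 (1.55, 1.22 to 1.99), PARD3 (1.42, 1.29 to 1.56) and CGN (1.25, 1.04 to 1.52). By contrast VIM (0.983, 0.914 to 1.06) and ZEB1 (1.04, 0.978 to 1.11) had narrow intervals around 1, and KRT19 (1.15, 0.777 to 1.72) a wider one.

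**Figure D4:**
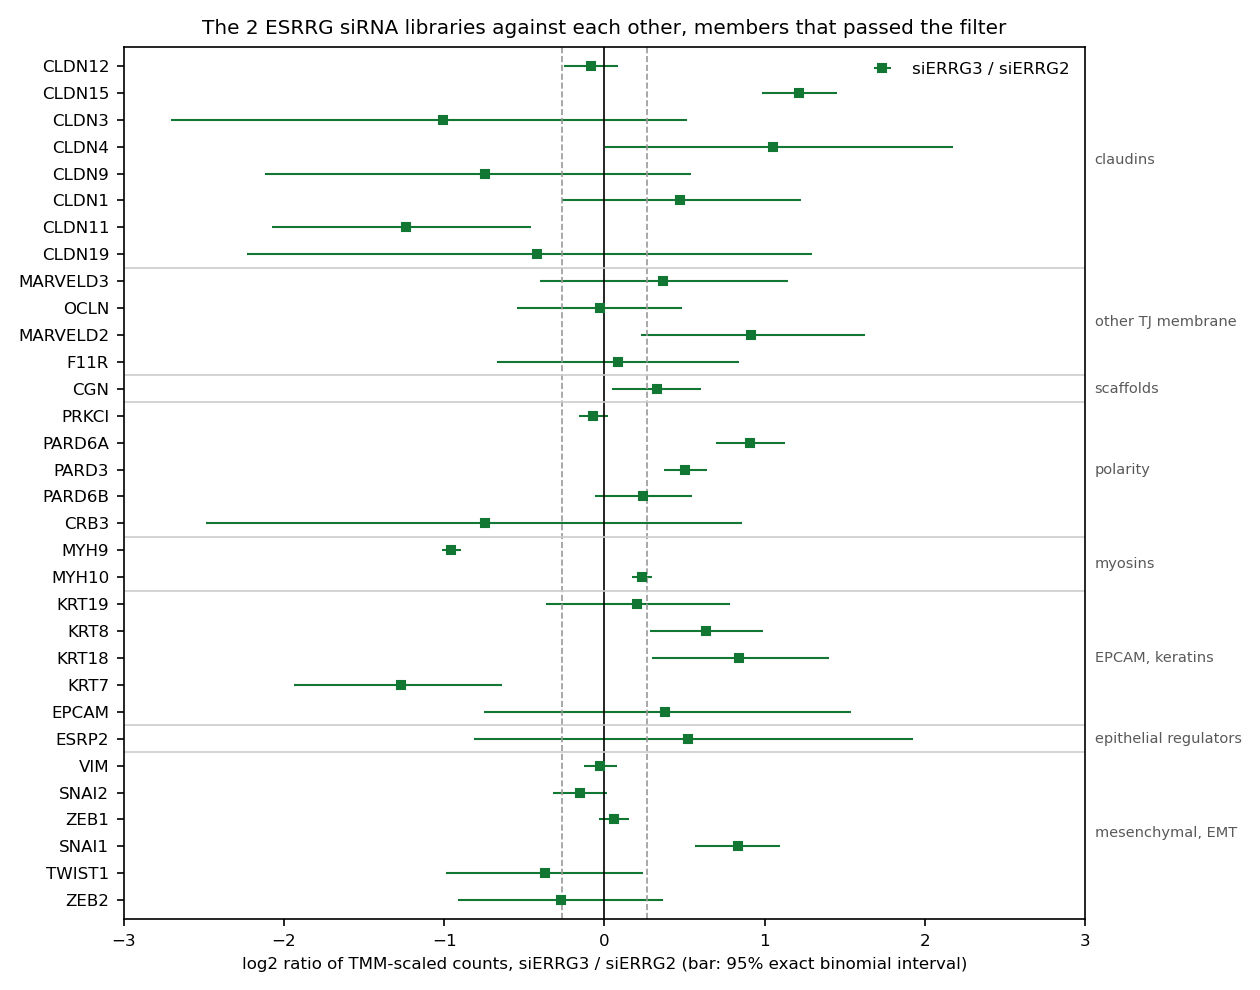
Log2 ratio of TMM-scaled counts in siERRG3 to those in siERRG2 for the members that passed the filter, 1 of the 33 left out, with 95% exact binomial intervals that cover counting error only; dashed lines mark 1.2-fold. CLDN15, CLDN4, MARVELD2, PARD6A, KRT18 and SNAI1 lie above 0.8. MYH9 lies at -0.95, with KRT7, CLDN11 and CLDN3 below it, while VIM and ZEB1 lie near 0.

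Other genes of junctions, epithelium and EMT were taken from 4 lists, of which 71 genes are in the table and 57 passed the filter. In siERRG2, 16 were lower (28.1%, against 19.2% of all genes) and 11 higher (19.3%, against 16.4%) than in siCont. In siERRG3, 17 were lower (29.8%, against 25.1%) and 17 higher (29.8%, against 23.2%). With the interval on 1 side of 1, 11 were lower (19.3%, against 12.8%) and 5 higher (8.77%, against 10.2%) in siERRG2. In siERRG3 these were 13 (22.8%, against 19.9%) and 10 (17.5%, against 17.1%), so several of these shares lay near those of all genes. The counts of each list that follow are read against the same shares of all genes. The tight junction and polarity list gave 5 lower (17.9%) and 2 higher (7.14%) of 28 in siERRG2, and 8 lower (28.6%) and 6 higher (21.4%) in siERRG3. The desmosome list, for the spot-like junctions that anchor keratin, gave 2 lower and 1 higher of 8 in siERRG2, and 1 lower and 2 higher in siERRG3. The epithelial list gave 1 and 1 of 9, then 2 and 1, and the EMT list gave 3 and 1 of 12, then 2 and 1.

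Among those with a mean of 50 counts or more, 6 passed fold and interval in 1 direction in siERRG2 and siERRG3 alike. The share of all genes that did so was not computed. Both comparisons use the same siCont library, so calls in 1 direction are not independent. RBFOX2, a splicing factor active in mesenchymal cells, had counts of 4763, 3144 and 3506, lower on the log2 scale with values of -0.62 and -0.47. LSR, a protein of 3-cell corners, had 107, 79 and 66 counts, with -0.44 and -0.70. SYMPK, an RNA processing protein also found at tight junctions, had 1356, 929 and 1071 counts, and VASP, which lengthens actin filaments, had 316, 196 and 252, with log2 fold changes of -0.56 and -0.36 for SYMPK and -0.70 and -0.35 for VASP. CXADR, an adhesion protein of the tight junction, was higher, with 424, 630 and 550 counts and log2 fold changes of 0.55 and 0.35, as was KRT10, with 303, 413 and 379 counts and 0.43 and 0.30.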

How the data were processed

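The authors deposited 1 table of 17448 genes with estimated counts (expected counts) per gene and library, not normalized, and an expression value that behaves as FPKM, whose unit the table does not name. The paper's methods name BWA and Bowtie 2 on GRCh37/hg19, the submitters' processing notes also name TopHat2, HTSeq and DESeq2 without a role, and the table's coordinates are those of GRCh38. The counting program and its use of strand are not given in the sources used here. The authors' deposited log2 ratios and p-values were not used. Of the members, 29 had whole estimated counts in all libraries, and 38 overlap another gene of the table. The counting may have divided reads among overlapping genes. For CLDN1, CLDN16 and PRKCI the only overlapping gene was MUC4, with at most 1 count in a library. KRT18 is overlapped and had whole counts in all libraries.

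Estimated counts were rounded, genes reaching 10 counts in any library were kept (14031), and TMM scaling factors came from edgeR 4.0.16 (R 4.3.3) (factors 0.994, 1.003 and 1.003). Log2 CPM had a prior count of 2, which draws low counts towards a fold change of 0. Intervals are 95% exact binomial intervals of the count ratio (SciPy 1.17.1) and cover counting error only. With 1 library per condition neither edgeR's nor DESeq2's test could be run. Members named for a change are the 20 past 1.2-fold with the interval on 1 side of 1 in at least 1 of the 3 comparisons, and others are named for their level, position or sequence. The members and lists were chosen with earlier results of these data known. The computations were tested on data simulated with counting error only, the error that the intervals assume. Variation between cultures was not simulated, so the test says nothing about it. Alternatives were CPM from total counts, DESeq2 1.42.0 size factors, the FPKM-like values with a pseudocount of 0.1, a prior count of 0.5, filters of none or of 50 mean counts, and thresholds of 1.5-fold, 2-fold or 1.2-fold with the interval. The values of 1 member are not reported here, though it is included in the counts, sums and medians over members.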

Additional observations from a re-analysis of the deposited data

Results flagged for a closer look

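In 4 members the ESRRG siRNA libraries lay on opposite sides of siCont, each by at least 1.2-fold. The difference was not tested, since each siRNA has 1 library. The share of all genes on opposite sides was not computed, so the number of members cannot be called high or low. Of all genes tested, 35.5% differed by 1.2-fold from siCont in siERRG2 and 48.3% in siERRG3, in either direction. The log2 fold change of siERRG3 over siERRG2 was 1.21 for CLDN15, 0.94 for CLDN4, 0.87 for MARVELD2 and -1.22 for KRT7. Only CLDN15 had an interval on 1 side of 1 against siCont in both libraries. The interval of CLDN4 for siERRG3 against siERRG2 began at 1.003, on 25 and 12 counts. On the FPKM-like values CLDN4 in siERRG2 fell short of 1.2-fold, with a log2 fold change of -0.25, which leaves 3.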

How the results depend on the processing

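No paired analysis was possible because each condition has 1 library. Replicates could not be left out for the same reason. With total counts, DESeq2 size factors, the FPKM-like values or a prior count of 0.5, all counts of members called stayed within 1.5 times, and of the 240 fold changes of the 20 named members under these settings 0 reversed and 2 moved by over 1.5 times. Both were of ESRP2 on the FPKM-like values, 0.39 and 0.62 in place of 1.45 and 1.89, and its counting interval is too wide to show stability. At 1.2-fold the calls of CLDN4 in siERRG2 against siCont (-0.25) and of ESRP2 in siERRG3 against siERRG2 (0.23) were lost on the FPKM-like values, and in siERRG2 against siCont KRT8 gained one with a prior count of 0.5 (-0.26) and PARD6B with total counts (0.27). Filter and threshold mattered more. Without a filter, 16 of 48 members were lower in siERRG2 and 13 in siERRG3 than in siCont (22.7% and 26.6% of all genes), 22 were higher in siERRG3 than in siERRG2 (28.9%), and the median log2 fold change was -0.01 for siERRG3 against siCont and 0.21 for siERRG3 against siERRG2. Among the 18 members with a mean of at least 50 counts, 6 were lower and 2 higher in siERRG2 than in siCont (15.5% and 12.8% of such genes), 3 were lower and 7 higher in siERRG3 (24.3% and 19.4%), and 1 was lower and 7 higher in siERRG3 than in siERRG2 (25.0% and 22.1%), with medians of -0.19 for siERRG2 against siCont and 0.24 for siERRG3 against siERRG2. At 1.5-fold, 2 of 33 were lower and 3 higher in siERRG2 than in siCont (6.97% and 4.29% of all genes), 5 lower and 6 higher in siERRG3 (9.95% and 8.47%), and 7 higher in siERRG3 than in siERRG2 (10.7%). At 2-fold, the counts were 1 lower and 2 higher in siERRG2 (2.33% and 1.29%), 1 and 1 in siERRG3 (2.65% and 2.91%), and 2 and 1 in siERRG3 against siERRG2 (3.25% and 3.63%). With the interval on 1 side of 1, 5 were lower and 4 higher in siERRG2 than in siCont, and 3 were lower in siERRG3 than in siCont and 3 lower than in siERRG2. Calls of members under 50 counts are limited by depth.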

Other observations

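A few genes of the other lists, chosen after their values were seen, differed by more than most members. KRT5, a keratin of basal cells, had counts of 66, 12 and 22 in the order siCont, siERRG2, siERRG3, with ratios to siCont whose intervals ran from 0.0884 to 0.335 and from 0.193 to 0.538. PKP2, a plaque protein of desmosomes, had 73, 39 and 135 counts, lowest in siERRG2 and highest in siERRG3. CD44, a hyaluronan receptor, had 56, 53 and 143 counts, and LUM, a matrix proteoglycan, had 83, 183 and 58.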
